A study of Mus musculus with 686 samples.

Results

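The transfer RNAs (tRNAs) of alanine and cysteine were followed across all tissues of the series. Members were every entry of the tRNA count table whose name carries the isotype Ala or Cys, which gave 88 of 408 listed tRNA genes. Alanine had 34 genes with 3 anticodons, 13 with AGC, 10 with CGC and 11 with TGC. Cysteine had 54 genes, all with the anticodon GCA. No measured value entered this choice.

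A tRNA carries 1 kind of amino acid, its isotype, to the ribosome, where its anticodon pairs with the codon of the mRNA. An aminoacyl-tRNA synthetase loads the amino acid, and the alanyl enzyme is known to recognise a wobble pair in the acceptor stem of its tRNA. Enzymes such as angiogenin can cut mature tRNAs in the anticodon loop into long pieces, and shorter tRNA fragments also occur. Small RNA libraries capture such pieces along with miRNAs, and mature tRNAs are hard to copy because of their fold and modified bases. The counts here are therefore reads on tRNA genes, and pieces and whole tRNAs were not separated.

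Small RNA was sequenced in 686 libraries from 13 tissues of female BALB/cAnNTac mice. Mice flown to the ISS (FL, 229 libraries) were compared with habitat ground controls kept in flight hardware at matched density, temperature, humidity and carbon dioxide (HGC, 227) and with vivarium ground controls in standard cages (VGC, 230). Mice of the live animal return (LAR, 348 libraries) spent 39.5 days in flight and were collected 2 to 4 days after splashdown, with tissues dissected fresh and frozen. Their anaesthetic is given as a gas in the sample labels and as injected ketamine and xylazine in the study's methods. Mice of the terminal group (TERM, 338 libraries) were killed 22 to 24 days after launch under an injected mixture with ketamine, and whole carcasses were frozen and later thawed for dissection, apart from the spleen, which was taken fresh into RNAlater. The labels and methods thus describe slower freezing in TERM, whereas a supplement of the study names slow freezing for the longer collection and snap freezing for the shorter one. Ground controls of each group followed the same schedule on Earth. Mice were 3 months (358 libraries) or 8 months (328 libraries) old, and brain of LAR and pancreas of TERM had 3 months only. Groups of 1 tissue, arm and extraction held 2 to 10 mice. Mice of different arms that carry the same number are different animals. Tissues of 1 mouse share its number.

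Counts over 7 RNA classes came to 54.5 M in the median library (9.15 to 428 M), and tRNA counts to 15.1 M (1.17 to 242 M). The tRNA class took between 2.20% and 89.5% of these counts. Alanine genes had a median of 23966 counts per library and cysteine genes 304380. The miRNA profile of 166 libraries (24.2%) was closer to the median profile of another tissue than to that of the labelled one, among them 46 of 57 mesenteric fat libraries and none of 25 brain libraries. Of these, 119 lay in 11 sequencing pools with 168 libraries. Median levels of tissue-defining miRNAs were highest in the labelled tissue for liver, heart, diaphragm, brain, pancreas, thymus and spleen, whereas both kidney markers were higher in liver than in kidney. No marker of lung or fat was used. Values below include all libraries, and values without those pools or without those libraries are given beside many of the main results. In bulk tissue, fewer cells of a type and less RNA per cell cannot be told apart.

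Share denotes the percent of a library's tRNA counts, and level denotes counts per 1000000 counts of all 7 classes (CPM). Averaged over all libraries, glutamate (46.2%), glycine (20.1%) and valine (19.1%) filled most of the tRNA counts. Cysteine ranked 6 of 23 isotypes with a mean share of 2.45%, and alanine ranked 13 with 0.280%. Single libraries ranged from 0.421% to 23.2% for cysteine and from 0.0221% to 3.08% for alanine. A library held a median of 11.7 cysteine counts per alanine count.

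Many genes carry identical counts in every library. How reads that match several gene copies were assigned is not given in the sources used here, and counts of single copies are uncertain. Where a read was counted at each copy it matches, sums over genes hold it more than once. The shares, ranks and cysteine counts per alanine count above would then depend on the number of copies. They are not given with identical genes counted once. The 34 alanine genes reduced to 23 distinct sets of counts and the 54 cysteine genes to 22. A set of 7 cysteine genes, namely 4 copies of Cys-GCA-3, Cys-GCA-2-1 and 2 copies of Cys-GCA-1, took 92.8% of all cysteine counts. Within a library the highest and the lowest of them differed by a median of 0.446% of the highest, and they are close to 1 measurement. Their 3 distinct sets of counts had mean shares of 0.323% for Cys-GCA-3-1, 0.321% for Cys-GCA-2-1 and 0.321% for Cys-GCA-1-1. The other 47 cysteine genes took 7.19% of the cysteine counts, of which 29 identical copies of Cys-GCA-4 made up 5.55% of all cysteine counts. In 207 libraries these 47 genes rose above 10% of the cysteine counts, and their median part was highest in diaphragm with 17.8%.

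Alanine counts were spread over many genes. AGC genes took 44.8% of them, TGC genes 33.0% and CGC genes 22.2%, and these parts were 43.0%, 32.7% and 24.2% when identical genes were counted once. The highest single genes were Ala-TGC-2-1 with its identical copy Ala-TGC-3-1, each at a mean share of 0.0214%, Ala-TGC-4-1 at 0.0202%, and Ala-CGC-1-1 with its copy at 0.0157%. The leading alanine gene held 6.45% of the alanine counts. The anticodon mixture shifted with the tissue. TGC genes had a median of 47.0% of the alanine counts in kidney and 26.4% in gonadal adipose tissue (GAT), whereas CGC genes had their highest median in GAT with 26.1% and their lowest in pancreas with 15.9%.

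Alanine and cysteine differed in their order over tissues. The order below pools LAR and TERM, between which many shares differed and whose mix varied by tissue (12 and 13 brains, 28 and 11 pancreases). Median alanine shares were lowest in fat, with 0.0566% in GAT, 0.0677% in subcutaneous (SCAT), 0.0951% in brown (BAT) and 0.113% in mesenteric adipose tissue (MAT). They then climbed through thymus (0.175%), brain (0.183%), kidney (0.194%), liver (0.207%), lung (0.218%), heart (0.245%) and spleen (0.270%) to pancreas (0.426%) and diaphragm (0.462%). Of the 12 pairs of neighbours in this order, only brain and thymus differed in mean share (0.449% ± 0.589, SD, n = 25, against 0.206% ± 0.149, n = 58, adjusted p = 0.0294, 2-sided permutation test). This call was lost with the replicate block (adjusted p = 0.211), and the medians were 0.633% against 0.241% in LAR but 0.109% against 0.103% in TERM. Within extractions, the 4 fat depots had the lowest alanine medians in both. Diaphragm (0.733%) and brain (0.633%) were highest in LAR, and pancreas (0.624%) and diaphragm (0.423%) in TERM. Median cysteine shares were lowest in liver (0.757%), spleen (0.90%) and heart (0.973%), intermediate in kidney (1.41%), diaphragm (1.90%), lung (2.05%) and thymus (2.15%), and higher in SCAT (2.30%), BAT (2.54%), MAT (2.6%) and GAT (3.01%). Pancreas (3.19%) and brain (4.47%) were at the top, with brain above pancreas in LAR (3.42% and 3.14%) and below it in TERM (5.18% and 9.11%). Kidney exceeded heart by 0.488 percentage points (adjusted p = 0.00696) and diaphragm exceeded kidney by 0.441 points (adjusted p = 0.0425), and the other 10 pairs of neighbours did not differ beyond their spread. Neither order held in both extractions, since kidney had the lower median than heart in LAR (0.959% and 0.991%) and diaphragm the lower one than kidney in TERM (1.78% and 1.99%). With the replicate block the difference between diaphragm and kidney no longer passed (adjusted p = 0.0886). These tests treat tissues of the same mice as independent unless the block is used. Cysteine counts per alanine count had medians from 3.17 in spleen to 49.0 in GAT. Without the 11 pools, or without the libraries of another profile, 3 pairs of neighbours differed for alanine under each.

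Over the 13 tissue medians on the log2 scale, the alanine share ran most closely with the shares of serine (Pearson's r = 0.97), phenylalanine (r = 0.93) and leucine (r = 0.92). The cysteine share had no such companion, with r = 0.35 for glutamate, 0.12 for valine and -0.02 for iMet, the initiator methionine tRNA, as its 3 closest. Alanine and cysteine had r = -0.30. These 13 points share libraries and the tRNA total as denominator, and the values are a description.

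**Figure D1:**
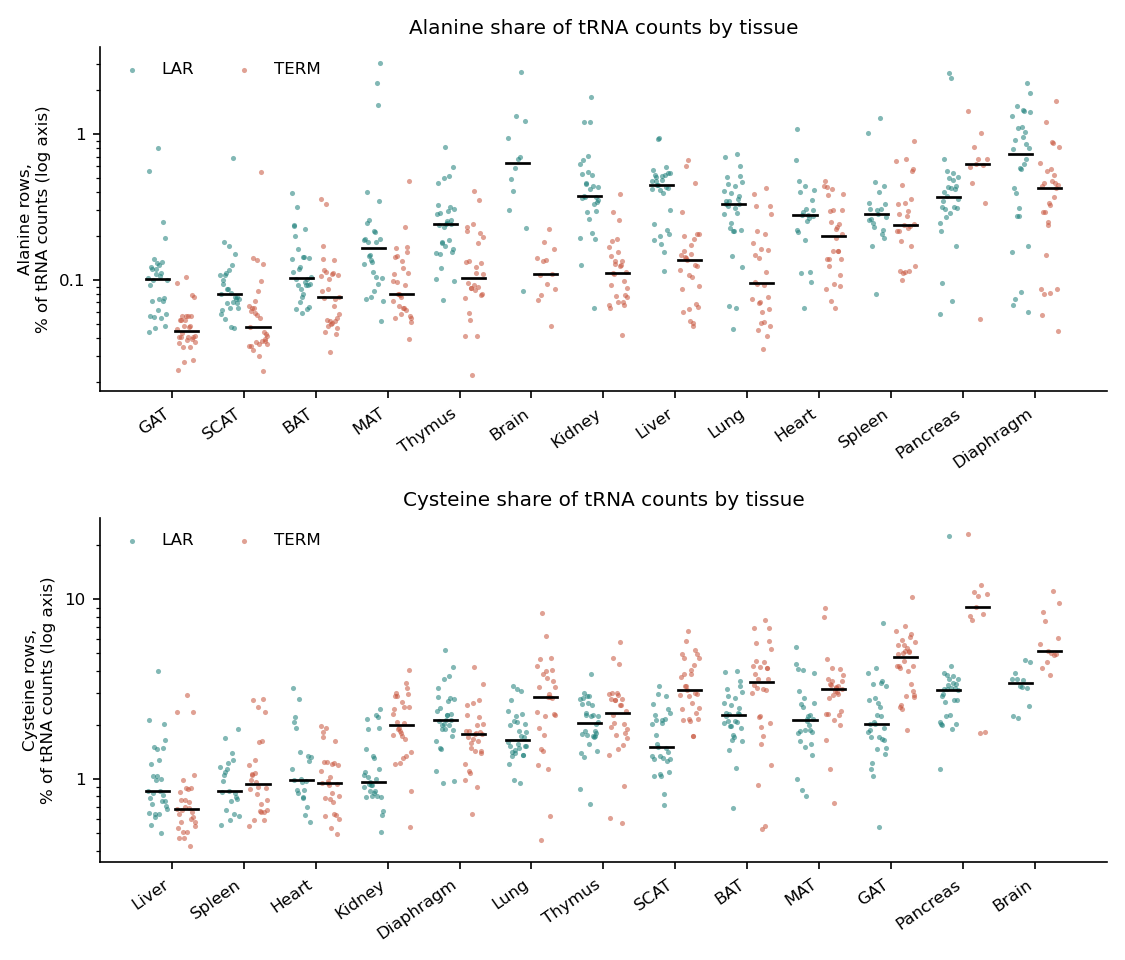
Shares of all alanine genes (upper panel) and all cysteine genes (lower panel) in percent of a library's tRNA counts on log axes, 1 point per library and 1 black line per median, for LAR and TERM in each of 13 tissues ordered by the median of all libraries. Alanine medians lie lower in TERM than in LAR in 12 tissues, and cysteine medians lie higher in 10.

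The extractions differed in both shares. From LAR to TERM the alanine share became lower while the cysteine share became higher in many tissues. Here the mice, the days in flight, reentry, the anaesthetic mixture and the way tissue was preserved differ together and cannot be told apart. Brain was among the tissues in which both shares differed. The LAR brains had alanine shares of 0.698, 0.489, 0.407 and 1.33% in FL, 0.226, 1.23, 0.588 and 0.303% in HGC and 2.67, 0.0839, 0.943 and 0.677% in VGC. The TERM brains had 0.0930, 0.135, 0.0791 and 0.136% in FL, 0.141, 0.109, 0.109, 0.162 and 0.0484% in HGC and 0.0860, 0.0728, 0.183 and 0.222% in VGC. Of the 12 LAR brains, 11 lay above every TERM brain, the exception being a VGC mouse. Between mice of 3 months the mean was 0.803% ± 0.700 (n = 12) in LAR and 0.116% ± 0.0355 (n = 8) in TERM, a difference of -0.693 points (adjusted p = 0.010, exact permutation test within arm and age). Cysteine shares of the LAR brains ranged from 2.18% over a median of 3.42% to 4.61%, and those of the TERM brains from 3.8% over 5.18% to 11.1%. In 10 of 13 TERM brains the cysteine share was above every LAR brain, and the difference at 3 months was 3.37 points (adjusted p = 0.000354, exact permutation test).

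GAT and kidney also had a lower alanine share and a higher cysteine share in TERM. In GAT the alanine share ran from 0.0440% over a median of 0.101% to 0.799% in LAR and from 0.0239% over 0.0447% to 0.105% in TERM. The groups overlapped, with 29 of 30 TERM libraries below the LAR median, and TERM was lower by 0.0883 points in mean (p = 1e-05, the smallest that 100000 resamples can give). The cysteine share of GAT ran from 0.541% over 2.02% to 7.42% in LAR and from 1.87% over 4.76% to 10.3% in TERM, with 29 of 30 TERM libraries above the LAR median and a difference of 2.31 points (adjusted p = 6.5e-05). In kidney the alanine medians were 0.373% in LAR and 0.112% in TERM, and the cysteine medians were 0.959% and 1.99%. Of 29 LAR kidneys, 14 had a higher alanine share than any TERM kidney, and 6 had a higher alanine level than any. Median cysteine counts per alanine count went from 22.9 to 107 in GAT, from 2.42 to 20.7 in kidney and from 5.37 to 52.5 in brain.

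Over all tissues the alanine share was lower in TERM in 12 of 13 and passed the test in 8, all lower, with differences in brain (-0.693 points), kidney (-0.353), diaphragm (-0.331), MAT (-0.279), liver (-0.254), lung (-0.195), thymus (-0.140) and GAT (-0.0883). The p-value was 1e-05 in GAT, kidney, liver and thymus. The cysteine share passed in 9 tissues, higher in pancreas (5.05 points), brain (3.37), GAT (2.31), SCAT (1.71), BAT (1.19), lung (1.17), kidney (0.938) and MAT (0.935) and lower in diaphragm (-0.521). The diaphragm difference did not pass with identical genes counted once or without glycine and glutamate genes in the total. Without the 11 pools, 9 tissues passed for alanine, all lower, and cysteine passed in 8 tissues higher and 1 lower. Without the libraries of another profile the counts were 9 lower for alanine and 7 higher with 1 lower for cysteine, and MAT, where 11 libraries are left, no longer passed for either isotype. With the plate mean removed, 8 tissues were lower for alanine, and 8 were higher and 3 lower for cysteine.

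Spleen and heart passed for neither isotype. In heart the alanine medians were 0.278% in LAR and 0.200% in TERM (difference -0.102 points, adjusted p = 0.0588) and the cysteine medians 0.991% and 0.955% (-0.228 points, adjusted p = 0.218, permutation tests). In spleen, the alanine medians were 0.281% in LAR and 0.238% in TERM, with a difference of -0.0462 points (adjusted p = 0.546, permutation test). The cysteine medians of spleen were 0.853% and 0.933%, with a difference of 0.161 points (adjusted p = 0.304). The tRNA class as a whole moved with the extraction as well, and its median percent of all counts was higher in TERM in each tissue, by little in spleen (6.66% to 7.88%) and by much in brain (4.90% to 27.7%) and liver (8.91% to 36.3%). Its part in the shift of the shares was not tested. Whether spleen or heart differed from the other tissues was not tested either.

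On the level scale, which counts the growth of the tRNA class, cysteine was higher in TERM in 13 of 13 tissues and passed in 10. Median levels went from 1304 to 15614 CPM in brain, from 2322 to 42469 in pancreas and from 820 to 4882 in kidney, while spleen went from 541 to 806 and did not pass (adjusted p = 0.304). On the log2 scale the differences that passed ran from 0.84 in BAT to 3.25 in brain. Alanine levels passed in 3 tissues. They fell in GAT by 0.80 and in SCAT by 0.61 on the log2 scale and rose in pancreas by 2.35. When levels were scaled to miRNA counts instead, neither fall passed (adjusted p = 0.301 in GAT and 0.126 in SCAT), and alanine rose in pancreas and liver. With identical genes counted once, 2 tissues were lower and 3 higher. Without the 11 pools, and without the libraries of another profile, alanine levels were 2 lower and 1 higher, and cysteine levels passed in 11 tissues, all higher. In brain at 3 months the mean alanine level was 8.24 in LAR and 8.21 in TERM on the log2 scale (adjusted p = 0.996, permutation test). Kidney had 8.71 and 8.15 (adjusted p = 0.0558, permutation test). In pancreas the alanine share had medians of 0.367% in LAR and 0.624% in TERM over all mice. At 3 months the means were 0.669% ± 0.775 (n = 15) and 0.664% ± 0.355 (n = 11), and the difference of TERM to LAR within arm was 0.0624 points (adjusted p = 0.842, permutation test).

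Other isotypes moved too. By tissue medians, 15 of 23 isotypes had a lower share in TERM in 10 or more tissues, and alanine with 12 tissues was among them. Cysteine was the only isotype with a higher share in 10 tissues, followed by glycine with 9. The median over tissues of the log2 ratio of TERM to LAR was -1.04 for alanine, close to serine (-1.16) and threonine (-1.08), and 0.60 for cysteine against 0.14 for glycine, -0.02 for glutamate and -0.10 for valine.

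**Figure D2:**
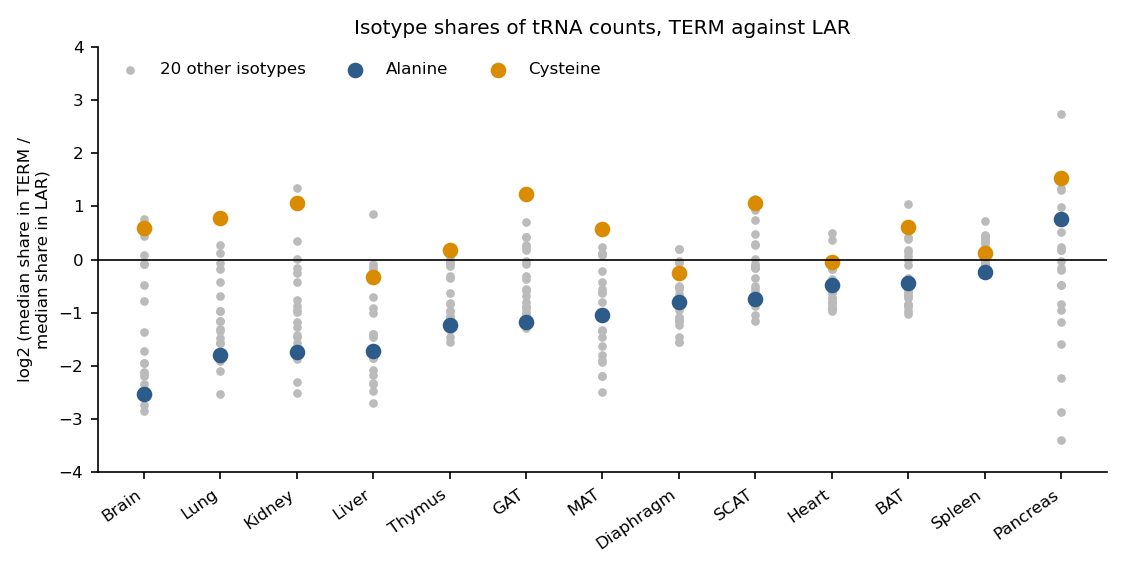
Ratio of the median share in TERM to that in LAR on the log2 scale for each tissue, with alanine in blue, cysteine in orange and 20 other isotypes in grey (the suppressor tRNA isotype with 2 genes is left out); points below 0 have the lower median in TERM. Alanine lies below 0 in every tissue but pancreas, and cysteine lies above 0 in all but diaphragm, heart and liver.

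Gene by gene, edgeR with the tRNA total as library size and TMM factors called 48.5% of all tests of TERM against LAR at an adjusted p under 0.05, 21.5% higher and 27.0% lower. Alanine genes were called in 231 of 441 tests, 212 of them lower, and cysteine genes in 272 of 702, 237 of them higher. These counts without the 11 pools were 250 alanine tests, 237 lower, and 434 cysteine tests, 358 higher, beside 3165 of 5254 tests of all genes. Without the libraries of another profile they were 239, 220 lower, and 437, 360 higher, beside 3060 of 5255. Calls over all genes thus rose as well, from 2550 of 5260 with all libraries. Cysteine tests were called in 61.8% and 62.3% and alanine tests in 56.9% and 54.4% under these exclusions. Relative to the median of all genes, which was -0.12 on the log2 scale, the alanine median lay at -0.29 and the cysteine median at 0.46. Brain had 31 of 34 alanine genes called, 30 lower, and 48 of 54 cysteine genes, 45 higher, beside 76.9% of all genes (34.0% higher, 42.9% lower). GAT had 29 alanine genes lower and 51 cysteine genes called, 50 higher, beside 73.0% (25.8% higher, 47.2% lower). In SCAT 25 alanine genes were lower and 51 of 52 called cysteine genes higher, beside 57.4% (34.4% and 23.0%). MAT had 19 alanine genes called, 18 lower, and 50 cysteine genes, 46 higher, beside 67.1% (26.0% and 41.0%). In these 4 tissues both the share of cysteine genes called higher and that of alanine genes called lower were above the share of all genes. Kidney had all 34 alanine genes called, 33 lower, but 13 cysteine genes, 7 higher, beside 64.5% (23.8% higher, 40.7% lower). Lung was alike, with 29 alanine genes, 28 lower, and 14 cysteine genes, 9 higher, beside 61.3% (20.8% and 40.4%). Liver had 13 alanine genes, 12 lower, and 14 cysteine genes, 7 higher, beside 68.6% (29.7% and 38.9%), which is below the share of all genes. Thymus had 23 alanine genes lower and 10 cysteine genes, 7 higher, beside 48.5% (24.4% and 24.1%), and BAT 14 alanine genes lower and 9 cysteine genes, 8 higher, beside 29.8% (13.2% and 16.6%). Pancreas had 13 alanine genes called, all higher, and 11 cysteine genes, 7 higher, beside 47.0% (22.9% and 24.1%). In diaphragm, heart and spleen edgeR called no cysteine gene (6, 1 and 1 at an unadjusted p under 0.05). Alanine had 1 gene called in diaphragm, beside 11.8% of all genes (8.33% higher, 3.43% lower). No alanine gene was called in heart or spleen (0 and 5 unadjusted). Genes of other isotypes were called in heart and spleen. The called share of all genes there was below the 48.5% of all tests. Scaling changed these counts. With the tRNA total and no TMM factors the median of all genes moved to -0.57, 297 alanine tests were called, all lower, and 428 cysteine tests, 137 of them higher. Of 5260 tests of all genes 3040 were called under it, 2624 of them lower. With the total of the 7 classes the median of all genes moved to 0.15, with 140 alanine tests called, 108 lower, and 328 cysteine tests, 316 higher. Over all genes 2095 tests were then called, 1418 of them higher. Relative to all genes the alanine median stayed below (-0.50 and -0.33) and the cysteine median above (0.66 and 0.46) under both. These scalings were added after the data were seen.

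The cysteine genes did not move as a block. The 7 highest genes were called higher in 70 of 91 tests, that is in 10 tissues, and lower in none, and without TMM factors they were called higher in 56 (tRNA total) and 70 (7 classes) and lower in none. Among the other 47 genes, 29 of which are identical copies, 167 tests were higher and 35 lower of 611. These were 281 and 76 without the 11 pools and 283 and 77 without the libraries of another profile, and with no TMM factors they were 81 and 291 with the tRNA total and 246 and 12 with the 7 classes. Their part of the cysteine counts had a lower median in TERM in 12 of 13 tissues, for example 8.62% in LAR and 2.68% in TERM in kidney, 6.58% and 2.84% in pancreas and 9.03% and 3.71% in lung. Spleen went the other way, from 6.53% to 8.60%. In kidney the 7 highest genes were higher, while of the others none was higher and 6 were lower, and without TMM factors the 7 were again higher and 45 (tRNA total) and 4 (7 classes) of the others lower. MAT showed no such split, with 39 of the others higher and 4 lower and medians of 1.25 for the others and 1.17 for the 7 highest on the log2 scale. There Cys-GCA-1-1 had a median of 2907 counts per 1000000 tRNA counts (tRNA CPM) in LAR and 4307 in TERM (log2 fold change 1.17, edgeR adjusted p = 2.15e-06). Cys-GCA-21-1, among the 4 exceptions, had 1.58 and 0.233 (log2 fold change -2.09, adjusted p = 4.01e-08), and it was also lower in pancreas (-3.15), liver (-1.18), thymus (-1.01) and BAT (-0.88). All of these groups overlapped.

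Among alanine genes, the smallest adjusted p-values of TERM against LAR fell on genes of each anticodon. In brain Ala-TGC-4-1 had a median of 438 tRNA CPM in LAR (52.0 to 1998) and 51.4 in TERM (17.7 to 98.8), with a log2 fold change of -2.03 (adjusted p = 9.70e-07). In kidney the median of Ala-TGC-2-1 was 475 in LAR and 93.1 in TERM (log2 fold change -1.14, adjusted p = 8.00e-07). In GAT Ala-AGC-6-1 went from 10.3 to 3.68 (log2 fold change -1.27, adjusted p = 2.43e-10). Ala-CGC-5-1 was an exception that was higher in lung (52.0 and 59.5, log2 fold change 1.08, adjusted p = 0.000200) and in diaphragm (61.9 and 70.6, log2 fold change 0.78, adjusted p = 0.0476). In pancreas Ala-AGC-8-1 had medians of 137 and 353 (log2 fold change 1.54, adjusted p = 7.66e-05). TMM centres on the bulk of genes, so that a fold change differs from the ratio of the medians given here.

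Spaceflight was compared with each ground control in each tissue and extraction. For the shares, 1 of 78 alanine tests and 0 of 78 cysteine tests passed an adjusted p of 0.05 (6 and 4 at an unadjusted p under 0.05), and for the levels 0 alanine and 2 cysteine tests did (3 and 8 unadjusted). All 3 that passed were FL vs. HGC in LAR, in GAT and BAT. Smallest adjusted p-values elsewhere were 0.0947 for the cysteine share and 0.103 for the alanine level.

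In GAT of LAR the alanine share ran from 0.0712% over a median of 0.128% to 0.248% in FL, from 0.0440% over 0.0576% to 0.123% in HGC and from 0.0553% over 0.105% to 0.799% in VGC. All 10 FL mice lay above the HGC median and 6 above every HGC mouse. The means were 0.136% ± 0.0506 (n = 10) and 0.0708% ± 0.0285 (n = 10), a difference of 0.0651 points (p = 0.00103, adjusted p = 0.0401, exact permutation test). Against VGC the share of FL did not pass. The difference was of like size without the 11 pools (0.0647 points, adjusted p = 0.148, exact permutation test of 8 and 7 mice) and without the libraries of another profile (0.0644 points, adjusted p = 0.127, exact permutation test of 9 and 9), and it did not pass when any of 7 mouse numbers was left out, with the plate mean removed (0.0623 points, adjusted p = 0.627) or with mouse number as a block (adjusted p = 0.0762). Equal mouse numbers in different arms mark different animals, so this block pairs unrelated mice. A call between arms that is lost with it, here and below, cannot show whether the call holds. In GAT of TERM the medians were 0.0549% in FL and 0.0388% in HGC, with 9 of 10 FL mice above the HGC median (adjusted p = 0.358, exact permutation test).

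The cysteine level of GAT in LAR ran from 3739 over 9538 to 21146 CPM in FL, from 9946 over 21851 to 28395 in HGC and from 454 over 16208 to 31960 in VGC. All 10 FL mice lay below the HGC median. On the log2 scale FL was lower than HGC by 1.04 (13.11 ± 0.77 against 14.14 ± 0.52, n = 10 each, adjusted p = 0.0410, exact permutation test). In BAT of LAR it ran from 752 over 5913 to 9725 in FL, from 6663 over 10434 to 22071 in HGC and from 5643 over 7885 to 25843 in VGC, again with all 10 FL mice below the HGC median. FL was lower than HGC by 1.22 on the log2 scale (12.16 ± 1.21 against 13.39 ± 0.55, adjusted p = 0.0410, exact permutation test). Neither call held with the plate mean removed (differences of -1.12 in BAT and -0.93 in GAT, adjusted p = 0.0656 for both) or with mouse number as a block (adjusted p = 0.0762 and 0.267, exact permutation tests). As shares of the tRNA counts the medians in BAT were 2.20%, 2.27% and 2.22%, and the tRNA class itself took a median of 24.3% of all counts in FL and 44.9% in HGC. In GAT the tRNA class took 59.7% and 77.6%, and the cysteine share was 1.65% and 2.59% (adjusted p = 0.553, exact permutation test). Without the 11 pools the adjusted p of the cysteine level was 0.113 in both tissues, and without the libraries of another profile it was 0.136 in BAT and 0.0337 in GAT (exact permutation tests). In thymus of LAR the cysteine level of FL was above VGC by 1.11 on the log2 scale (adjusted p = 0.0981), and this passed without the 11 pools (1.48, adjusted p = 0.00606) and without the libraries of another profile (1.37, adjusted p = 0.00606, exact permutation tests).

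**Figure D3:**
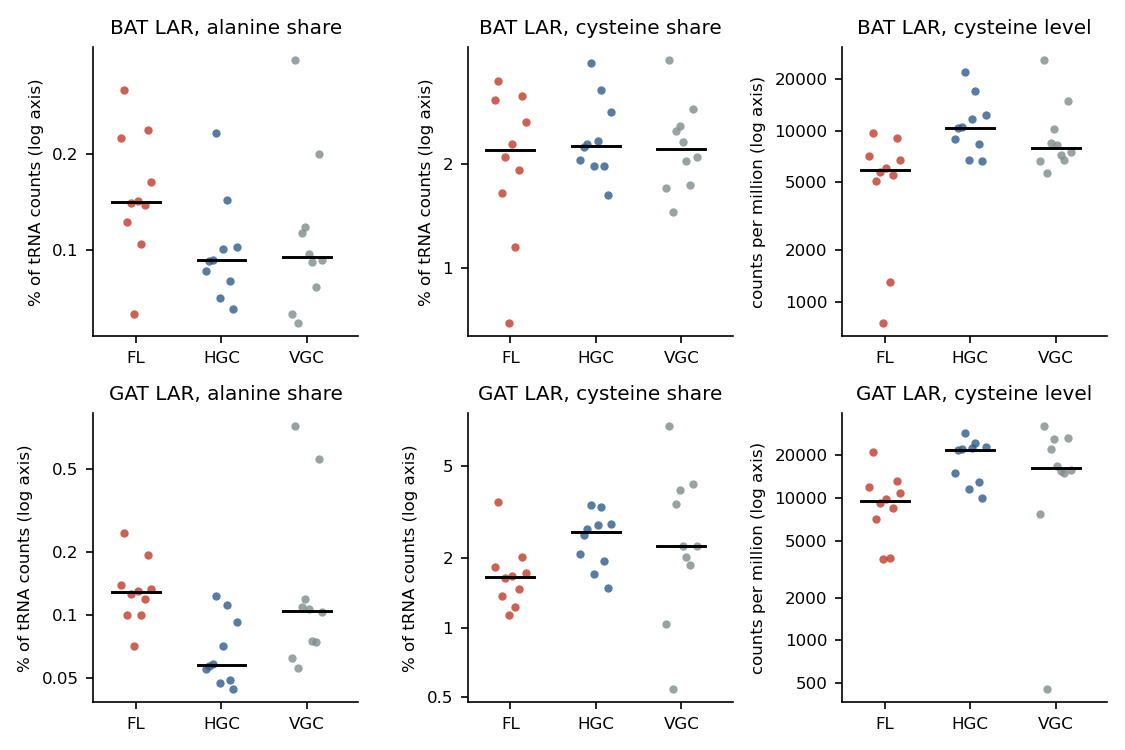
Alanine share, cysteine share (both in percent of tRNA counts) and cysteine level (CPM of all 7 classes) on log axes in BAT (upper row) and GAT (lower row) of LAR, with 1 point per mouse and black lines at the medians of FL, HGC and VGC (n = 10 each). In GAT the alanine shares of FL lie above the HGC median and in both tissues the cysteine levels of FL lie below it, while the cysteine shares in BAT overlap.

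The anticodon mixture of alanine in GAT of LAR differed by arm. AGC genes had 40.8% ± 4.33 of the alanine counts in FL, 50.9% ± 8.33 in HGC and 49.2% ± 6.39 in VGC (n = 10 each), with medians of 40.4%, 51.2% and 48.1% and overlapping ranges. FL was lower by 10.1 points against HGC and by 8.38 points against VGC, and in lung of LAR FL was lower than HGC by 4.19 points (adjusted p = 0.0490 for each of the 3, exact permutation tests). None of the 3 passed without the 11 pools (adjusted p = 0.0667, 0.111 and 0.252, exact permutation tests), without the libraries of another profile (adjusted p = 0.0511 for each, exact permutation tests) or with identical genes counted once, or with mouse number as a block (adjusted p = 0.244, 0.190 and 0.190, exact permutation tests).

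In the gene-by-gene fit of FL vs. HGC in LAR, edgeR called 5.19% of all tests over the 13 tissues. Alanine had 8 of 442 tests called and cysteine 49 of 702, all of them in BAT and GAT. In BAT, where 43.1% of all tRNA genes were called, 29.7% higher and 13.4% lower, 1 alanine gene was higher and 37 cysteine genes were lower, with 1 higher. In GAT, where 21.6% were called, 12.5% higher and 9.09% lower, 7 alanine genes were higher, and 9 cysteine genes were lower and 2 higher. The 38 cysteine calls in BAT were all among the 47 low genes and came down to 10 distinct sets of counts, whereas the 7 highest genes were lower in GAT. With the 7 classes and no TMM factors, 44 cysteine genes were lower in BAT, but in GAT the 3 called were all higher and none was lower. Over all genes this scaling called 151 in BAT, only 15 of them higher, and 77 in GAT, 61 of them higher. The cysteine median lay 1.17 below that of all genes in BAT and 1.16 below in GAT, and the alanine median 0.20 below in BAT and 0.67 above in GAT. Without TMM factors the cysteine median remained below that of all genes, by 1.18 and 1.19 with the tRNA total and by 0.87 and 1.06 with the 7 classes. With the tRNA total, however, the median of all genes moved to 0.79 in BAT and 0.78 in GAT, and only 5 cysteine tests were called, all higher, beside 24 alanine tests, all higher. All 190 calls over all genes in BAT and all 89 in GAT were higher under it.

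Ala-CGC-4-1 had the smallest adjusted p of the alanine genes in GAT, with a median of 0.673 tRNA CPM in FL (0.271 to 1.90) and 0.166 in HGC (0.0606 to 0.437), a log2 fold change of 1.45 (adjusted p = 0.0132). Cys-GCA-1-1 ran from 1463 over 2008 to 4233 in FL and from 1900 over 3226 to 4332 in HGC (log2 fold change -1.19, adjusted p = 0.0168). In BAT Ala-TGC-4-1 had medians of 98.8 in FL and 53.7 in HGC (log2 fold change 0.63, adjusted p = 0.0486) and Cys-GCA-12-1 32.1 and 43.4 (log2 fold change -0.91, adjusted p = 0.0255). Cys-GCA-21-1, a low gene with a median of 24 counts over all libraries, was higher in FL in both. It went from 0.886 to 2.38 in BAT (1.03) and from 0.425 to 1.61 in GAT (1.49). All of these ranges overlapped. Instead of 49, edgeR called 2 cysteine tests without mouse number 12 (both in BAT) and 13 without number 14 (12 of them in GAT). In GAT no alanine and no cysteine gene was called without number 11 or 12, and 1 cysteine gene was called without number 13, while the alanine calls were 14 or 15 without number 1, 2 or 4. With mouse number as a block it called 1 in BAT, higher, and 45 in GAT, of which 1 was higher. The cysteine medians on the log2 scale were -0.89 in BAT and -1.08 in GAT with all mice, -1.29 and -1.10 without number 11, -0.75 and -0.95 without number 12 and -0.56 and -1.18 without number 14. Without the 11 pools 129 cysteine tests were called, 44 lower in BAT, 46 lower in GAT and 36 higher in thymus among them, and 124 without the libraries of another profile. Calls over all tRNA genes in BAT, GAT and thymus were 131, 195 and 48 under the first and 137, 243 and 48 under the second. With all libraries they were 174, 88 and 0. Alanine tests called were 18 and 24.

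Spleen of TERM showed the opposite direction for cysteine. The cysteine share ran from 0.90% over 1.61% to 2.79% in FL (n = 9), from 0.589% over 0.759% to 1.28% in HGC (n = 9) and from 0.544% over 0.776% to 2.51% in VGC (n = 8). All 9 FL mice lay above the HGC median and 5 above every HGC mouse, and the difference was 0.852 points (p = 0.00243, adjusted p = 0.0947, exact permutation test). Without the libraries of another profile it was 0.869 points (adjusted p = 0.0303, exact permutation test of 7 and 8 mice). Without the 11 pools it was 0.798 (adjusted p = 0.113, exact permutation test of 6 and 6). By edgeR the 7 highest cysteine genes were higher in FL than in HGC, beside 9.18% of all genes called in this tissue (5.46% higher, 3.72% lower), and 0 alanine genes were called, also unadjusted (Cys-GCA-1-1, 2077 and 988 tRNA CPM, log2 fold change 1.66, adjusted p = 0.0374). With no TMM factors none of these 7 was called under either total, with medians of 1.08 (tRNA total) and 1.98 (7 classes) on the log2 scale against 1.62 with TMM. In spleen of LAR the cysteine share was 0.922% ± 0.167 in FL and 1.15% ± 0.443 in HGC (n = 6 each). The FL minus HGC difference was thus -0.227 points in LAR and 0.852 in TERM, and these differed by 1.08 points (p = 0.00203, adjusted p = 0.0264 over 13 tissues, permutation test of the difference). This test was not repeated without the 11 pools or without the libraries of another profile. The alanine share gave no such difference in any tissue (smallest adjusted p = 0.576).

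**Figure D4:**
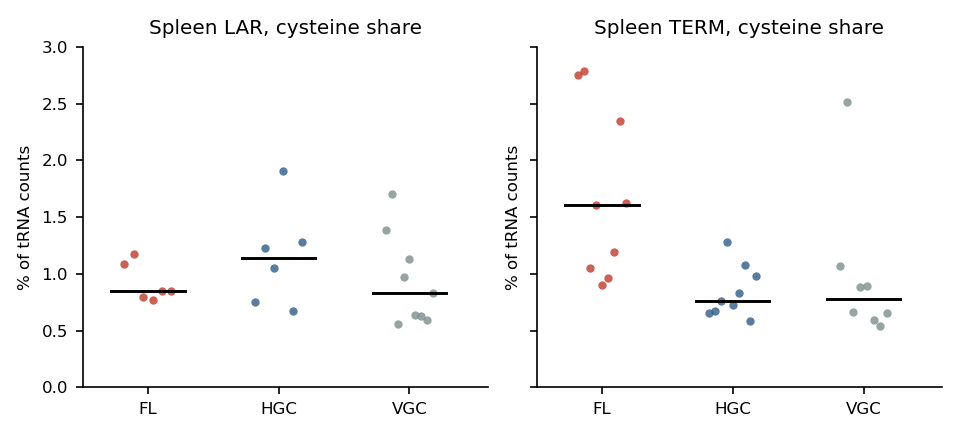
Cysteine share of tRNA counts in spleen, in percent, for FL, HGC and VGC in LAR (left, n = 6, 6 and 9) and TERM (right, n = 9, 9 and 8), with 1 point per mouse and black lines at the medians. In TERM every FL mouse lies above the HGC median of 0.759%, and in LAR the groups overlap.

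The remaining comparisons of arms held few calls. In GAT of TERM, FL vs. VGC called 10 alanine genes higher and 1 cysteine gene lower, beside 4.18% of all genes (3.93% higher, 0.246% lower). By edgeR, FL vs. VGC in LAR called no member (0.304% of all tests called), with 52 alanine and 229 cysteine tests at an unadjusted p under 0.05, beside 14.7% of all tests. HGC vs. VGC called none in LAR (0.228%, with 37 and 160 unadjusted beside 10.6% of all tests) or TERM (0.0%, with 16 and 7 unadjusted beside 4.12%). For the shares, HGC vs. VGC had no test past an adjusted p of 0.05 in either extraction. FL vs. HGC and FL vs. VGC share the FL mice.

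Few tests of age passed. For the shares, none of 24 tests per isotype between 8 and 3 months passed an adjusted p of 0.05 (1 alanine and 2 cysteine tests at an unadjusted p under 0.05). For cysteine, 1 share test passed without the 11 pools or without glycine and glutamate genes, and 1 level test passed instead of 0 without the pools or without the libraries of another profile. The alanine level in thymus of LAR ran from 264 over 484 to 2661 CPM at 8 months and from 142 over 308 to 601 at 3 months (n = 15 each). On the log2 scale the means were 9.14 ± 0.86 and 8.28 ± 0.48, a difference of 0.86 (p = 0.00132, adjusted p = 0.0158, permutation test within arm), and the ranges overlapped. No age test of the alanine level passed with the plate mean removed or without mouse number 2, 4, 5 or 14. In TERM the same tissue had medians of 458 and 296 (adjusted p = 0.280, permutation test). By edgeR no member was called for age in LAR, where 0.165% of all tests were (57 alanine and 13 cysteine tests unadjusted, beside 5.74% of all tests). In TERM 1 alanine and 9 cysteine tests were called, all higher at 8 months, beside 1.67% of all tests. In spleen these were the 7 highest cysteine genes and Ala-CGC-5-1, beside 2.48% of all genes there (1.99% higher, 0.496% lower). The others were Cys-GCA-19-1 in MAT (4.91% of all genes called, 0.246% higher, 4.67% lower) and Cys-GCA-21-1 in SCAT (12.7%, all higher). Cys-GCA-1-1 had medians of 1287 tRNA CPM at 8 months and 989 at 3 months (log2 fold change 1.45, adjusted p = 0.0232), with overlapping ranges. Whether the difference between FL and HGC changed with age was tested in 24 tests of LAR shares, of which 0 passed (0 at an unadjusted p under 0.05, smallest adjusted p = 0.761, exact permutation tests).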

How the data were processed

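The authors deposited counts per feature and library without normalization for each RNA class. For miRNAs they mapped reads to GRCm39 with miRMaster 2.0. The deposited miRNA values are estimated counts and entered only the total of the 7 classes and the check of tissue profiles. The tRNA reference, the treatment of reads that fit several genes, and adapter and quality filters are not given in the sources used here. Libraries were amplified by PCR and no molecular identifiers are named in these sources, so reads may not be independent molecules. Library pools and plates came from the study's list of samples.

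Shares and levels (log2 of CPM of 7 classes plus 1) were compared by 2-sided permutation tests, exact up to 200000 splits and otherwise with 100000 resamples, adjusted by Benjamini-Hochberg within a family. Single genes were tested over the whole tRNA table with edgeR 4.0.16 (limma 3.58.1, R 4.3.3), after leaving out genes without 5 counts in 10% of some arm's samples, and were checked with DESeq2 1.42.0. Every member passed this filter in the comparisons of arms. Permutation tests and summaries used Python 3.11.15 with numpy 2.4.6, pandas 2.3.3 and scipy 1.17.1. Scripts were tested on simulated data. Errors are standard deviations (SD).

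The tissue profile of a library was its Pearson's r over 730 miRNAs with the median of each tissue. The members, gene lists and tests were chosen with earlier results of these data known. Single genes were named by rule, namely the 3 of highest mean share per isotype and the 2 of smallest adjusted p per isotype, tissue and contrast, of which a part is printed. Alternatives were other scalings, filters, models and exclusions of libraries, and those added after seeing the data were the highest gene alone and other scalings and exclusions for TERM. The files hold no tRNA sequence, and none is printed.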

Additional observations from a re-analysis of the deposited data

Results flagged for a closer look

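Over both shares and all groups of 4 to 10 mice, 154 sets of values were examined, and in 39 (25.3%, 21 for alanine and 18 for cysteine) 1 mouse stood far from the others, on the high side in 38, and 16 of these libraries had the profile of another tissue. The nominal rate of this rule is about 5%. Over all libraries the shares were skewed to the high side, alanine with a median of 0.158%, a mean of 0.280% and a highest value of 3.08%. Whether the flags exceed what such skewed values give was not tested. Among the groups described above, the alanine share was 0.232% in mouse 16 of BAT HGC of LAR (next value 0.144%), 0.392% in mouse 16 of BAT VGC of LAR (next 0.199%), 1.29% in mouse 13 of spleen HGC of LAR (next 0.400%) and 1.01% in mouse 16 of spleen VGC of LAR (next 0.468%). The cysteine share was 11.1% in mouse 7 of brain HGC of TERM (next 5.01%), 3.50% in mouse 12 of GAT FL of LAR (next 2.02%), 7.42% in mouse 1 of GAT VGC of LAR (next 4.15%) and 2.51% in mouse 13 of spleen VGC of TERM (next 1.07%). The latter pair have the profile of another tissue. The difference between FL and HGC in the cysteine share of spleen was higher in TERM than in LAR by 1.08 points (adjusted p = 0.0264, permutation test), with FL below HGC in mean in LAR and above it in TERM. It was not tested again under any exclusion of libraries.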

How the results depend on the processing

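Of the results for single tissues, 846 values under the alternatives kept direction and side of the threshold, 138 no longer passed and 0 turned. Without the 11 pools, tests past the threshold were 0 for the alanine share and 0 for AGC between arms, 1 each for the cysteine share and level by age, 3 for alanine neighbours, and edgeR called 18 alanine and 129 cysteine tests in FL vs. HGC of LAR. Without the libraries of another profile these were 0, 0, 1 for the cysteine level by age, 3, 24 and 124, and 1 for the cysteine share between arms. The edgeR calls over all genes changed too, as given above. With identical genes once, AGC gave 0, the alanine level 2 by age and 5 between extractions, cysteine neighbours 4, and edgeR 5 alanine (2 higher, a turned majority) and 27 cysteine tests. With the plate removed, alanine share and cysteine level between arms gave 0 and 0, the alanine level by age 0 and alanine neighbours 2. Without Gly and Glu genes the cysteine share by age gave 1, alanine neighbours 5 and cysteine neighbours 4. Scaled to miRNA counts, cysteine levels gave 4 between arms and 1 by age, and alanine levels 2 by age. The highest gene alone, added after seeing the data, gave 0 for the alanine share between arms and 4 alanine neighbours. With the tRNA total and no TMM, edgeR called 24 alanine and 5 cysteine tests, the latter all higher. Calls over all genes were then all higher as well (190 in BAT and 89 in GAT), and the cysteine medians stayed below 0 (-0.39 and -0.41). DESeq2 called 101 cysteine tests, beside 222 calls over all genes in GAT and 187 in BAT, and age in the model left 5 alanine tests.

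Mouse numbers do not pair the arms: over 653 pairs the median r of deviations was 0.0277, and 40.1% exceeded 0.1. With the replicate block, the alanine share, cysteine level and AGC between arms gave 0 each, alanine neighbours 0, and edgeR 6 alanine and 46 cysteine tests, of which 45 were in GAT and 1 in BAT. Between arms this block joins different mice and cannot show whether a call holds. For neighbouring tissues it joins tissues of the same mouse.

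Leaving out each of 18 mouse numbers, tests past the threshold ran from 7 to 9 for the alanine share, 6 to 9 for the cysteine share, 3 to 4 for the alanine level and 9 to 10 for the cysteine level between extractions. Between arms they ran from 0 to 1, 0 to 2, 0 to 2 and 0 to 2, from 0 to 3 for AGC, and by age from 0 to 1 for either level. Neighbours ran from 0 to 3 (alanine) and 1 to 3 (cysteine), and edgeR from 0 to 19 alanine and 2 to 55 cysteine tests. Without number 11, 1 alanine test was called, lower in FL, and without number 12, 2 cysteine tests, both higher.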
